A study of Mus musculus with 24 samples.

Results

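The comparison is of mouse brain libraries named E4 with those named E3 at the first of the series' 3 time codes, 05. It takes 8 of the 24 libraries of the series, 4 named E4-05 and 4 named E3-05, chosen by the library names and by the column headers of the count table. The labels give the tissue as brain and the RNA as polyadenylated, and spell out neither the E code nor the time code. No strain, age, sex, treatment or allele is given. The titles call the libraries biological replicates, numbered within each month across both E codes, but do not say whether each came from a separate animal. P-values therefore measure the spread between these libraries. The title of the series speaks of ApoE4 and lipids in microglia, and of an axis of Asxl1, the liver X receptor alpha and trimethylated lysine 4 of histone H3. E4 against E3 is read as the study's main contrast. Libraries 1 and 2 of each group carry titles with the month January, and libraries 3 and 4 carry February. Libraries are called here by group and by the number in the library name, as in E4-05 4.

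Apolipoprotein E carries cholesterol and other lipids between the cells of the brain and is made mainly by astrocytes, and also by microglia that take up debris. Liver X receptors are sterol-sensing transcription factors that turn on Apoe and the sterol exporters Abca1 and Abcg1. Oligodendrocytes wrap axons in myelin, a cholesterol-rich membrane, and the thalamus and brainstem hold more myelinated axons than the cortex. In bulk RNA from a piece of brain, fewer cells of a type and less RNA per cell cannot be told apart.

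Sequencing gave 37.4 M to 65.7 M counts per library for the 8 libraries (M, mega), against 37.4 M to 99.5 M over all 24. E4-05 libraries 1 to 4 held 44.0 M, 49.7 M, 39.4 M and 37.4 M, and E3-05 libraries 1 to 4 held 46.1 M, 65.7 M, 58.3 M and 38.2 M. One library of each group, E4-05 3 and E3-05 2, was rich in cerebellum and hindbrain RNA. Gabra6, which encodes a GABA receptor subunit found in granule cells of the cerebellum, was at 0.176, 0.276, 373 and 0.929 CPM in E4-05 1 to 4, and at 0, 399, 0.0705 and 0.0532 CPM in E3-05 1 to 4 (CPM, the library's counts after scaling by its total and its TMM factor). A term for these 2 libraries is part of every fold change below. All 8 libraries had the male pattern, with Xist at 0.170 CPM or less and Ddx3y at 52.6 to 66.0 CPM.

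No gene passed the test between E4-05 and E3-05. Of 18359 genes tested with edgeR's quasi-likelihood F test, 0 (0%) passed a Benjamini-Hochberg adjusted p of 0.05, and the smallest adjusted p was 0.987. At an unadjusted p under 0.05 there were 440 genes (2.4%), of which 270 (1.47%) were higher and 170 (0.926%) lower in E4-05, against 918 that exact tests would give with no differences. DESeq2 and limma-voom also called 0, with 480 and 485 genes at an unadjusted p under 0.05. The median log2 fold change over all genes was 0.0028, and 50.7% lay above 0. Simulated data took each gene's spread from these libraries, with genes drawn independently and so without shared shifts in tissue content. On them the same fit found 59% of the 100 genes given a 2-fold difference and 84% of the 100 given a 4-fold one. Differences of these sizes, and smaller ones, could therefore be missed. The coefficient of variation between libraries was 21.7% with the hindbrain term. Every gene value below is therefore a description of levels, none of them past the threshold. What the 8 libraries show most clearly is how far each one differs from the rest in the levels of region and cell type genes.

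Those levels were read from 24 gene lists of brain regions, cell types and pathways. The mean log2 CPM of a list differed most between libraries for the anterior pituitary, where the highest library stood 311-fold above the lowest, and for the cerebellum and hindbrain, at 258.5-fold. The ratio was 21.95 for the choroid plexus, 19.85 for the posterior pituitary and hypothalamus, 18.15 for blood, 16.6 for the striatum and 4.76 for the thalamus. It was 2.22 for myelin, 1.30 for liver X receptor targets, 1.22 for Asxl and H3K4 methylation, 1.20 for cholesterol synthesis, 1.17 for disease-associated microglia and 1.16 for amyloid processing. Each of the widest spreads came from a few libraries and did not follow the E code.

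**Figure D1:**
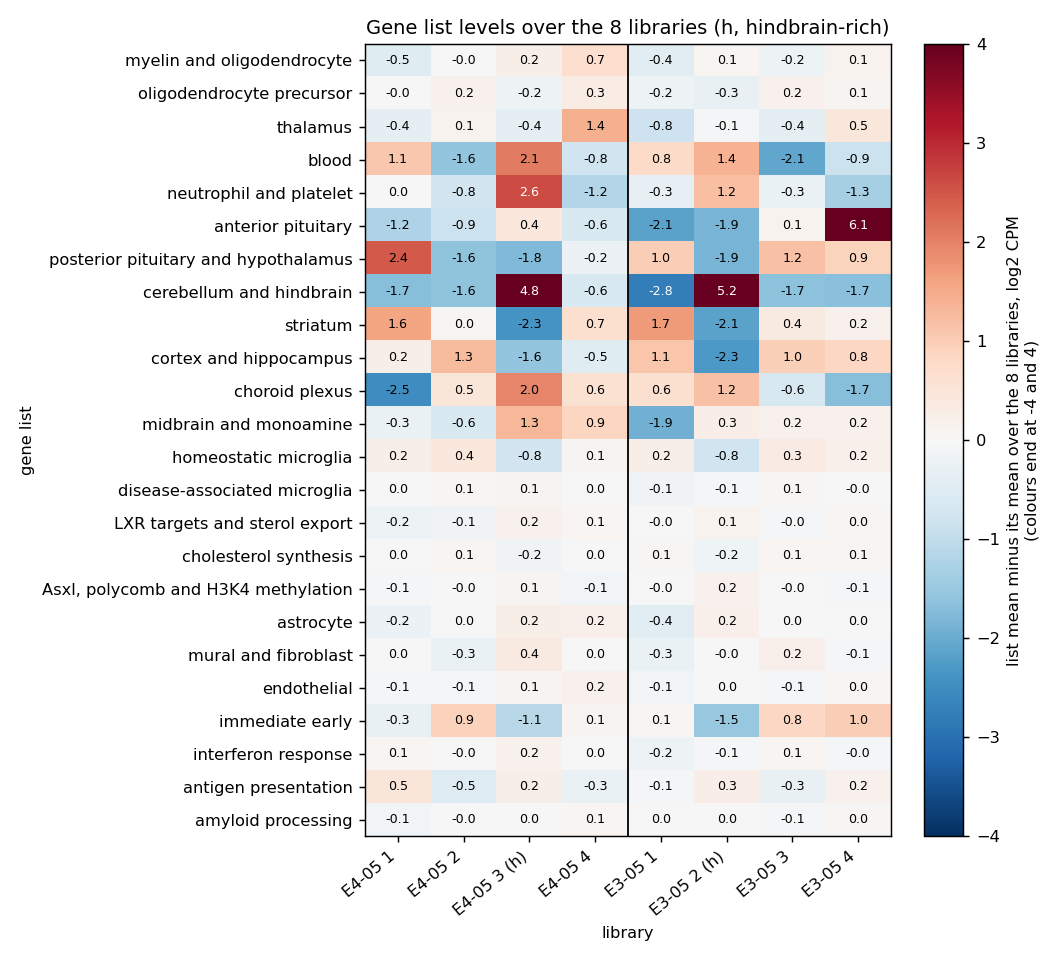
Mean log2 CPM of each of 24 gene lists (rows) in the 4 E4-05 and 4 E3-05 libraries (columns), less the list's mean over the 8, with h for a hindbrain-rich library. Single libraries stand out by list: E3-05 4 for the anterior pituitary, E4-05 1 for the hypothalamus, E4-05 3 for choroid plexus, neutrophils and blood, and E4-05 4 for thalamus and myelin, while the lipid and chromatin lists are nearly flat.

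Genes of myelin and mature oligodendrocytes lay above 0 in E4-05 minus E3-05 for all 25 of 25 members, with a median log2 fold change of 0.25. None passed the test, 0 were at an unadjusted p under 0.05, and the groups overlapped in all 25, while over all 18359 genes they did not overlap in 155 (0.844%). Mbp, which holds the inner faces of the myelin membrane together, was at 2782, 4310, 5575 and 6658 CPM in E4-05 1 to 4, and at 2999, 5059, 3875 and 4667 CPM in E3-05 1 to 4. Mobp, another basic protein of central myelin, was at 809, 1519, 1420 and 2154 CPM in E4-05 and at 926, 1479.5, 1270.3 and 1502 CPM in E3-05. In both genes library 1 of each group was the lowest, E4-05 4 was the highest, and the groups overlapped. The fold changes were 0.22 (SE 0.25) for Mbp and 0.19 (SE 0.28) for Mobp, smaller than their errors.

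E4-05 4 was the highest of the 8 libraries for all 25 myelin genes, while the lowest library varied. It was E4-05 1 for 15 members, E3-05 1 for 5, E3-05 2 for 2, and E4-05 2, E4-05 3 and E3-05 3 for 1 each. The largest fold change belonged to Cldn11, the tight junction protein of myelin, with 145, 221, 215 and 345 CPM in E4-05 and 160, 146, 180 and 228 CPM in E3-05 (0.38, SE 0.25, unadjusted p = 0.158). The oligodendrocyte connexins Gjc3 (0.37, SE 0.26) and Gjb1 (0.25, SE 0.32) also lay above 0, and with them the myelin lipid enzymes Ugt8a (0.33, SE 0.25) and Fa2h (0.27, SE 0.22). The transcription factors of the lineage ranged from 0.24 (SE 0.17) for Nkx6-2 and 0.20 (SE 0.17) for Olig1 to 0.15 (SE 0.23) for Myrf, 0.09 (SE 0.17) for Sox10 and 0.03 (SE 0.16) for Olig2. Oligodendrocyte precursor genes gave a median of 0.11, with 7 of 10 above 0. The precursor receptor Pdgfra was at 73.4, 75.4, 43.3 and 70.5 CPM in E4-05 and 63.2, 40.5, 88.6 and 65.3 CPM in E3-05, lowest in the 2 hindbrain-rich libraries.

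Among the 6 libraries that were not hindbrain-rich, thalamus and myelin lists shared the top 3, with E4-05 4 highest, then E3-05 4, then E4-05 2, and the order of the remaining 3 differed. All 18 of 18 members lay above 0 with a median of 0.52, and 0 passed the test or had groups that did not overlap. The list averaged 5.07, 5.60, 5.08 and 6.88 log2 CPM in E4-05 1 to 4, and 4.63, 5.37, 5.05 and 5.91 in E3-05 1 to 4. Over the other 16 libraries of the series, scaled together with these 8, it ran from 3.64 to 6.61.

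Slc17a6, the vesicular glutamate transporter of thalamic and brainstem neurons, was at 145, 124, 123 and 357 CPM in E4-05 and at 54.5, 164, 118 and 170 CPM in E3-05 (0.56, SE 0.46). Prkcd, a protein kinase C isoform abundant in sensory relay nuclei, was at 34.6, 149, 66.9 and 401 CPM in E4-05 and at 33.9, 66.7, 57.2 and 183 CPM in E3-05 (0.83, SE 0.75). In both genes E4-05 4 was more than any other library and the remaining E4-05 values lay among those of E3-05. Tcf7l2, a transcription factor of thalamic neurons, ranged from 9.70 to 230 CPM in E4-05 and from 21.8 to 96.4 CPM in E3-05. E4-05 4 was the highest for 14 of the 18 members. The other 4 (Zic1, Zic4, Calb2 and Cacna1g) were highest in E3-05 2. All 4 were at 35.8 CPM or more in both hindbrain-rich libraries, as were Slc17a6 and Prkcd, so these members do not mark the thalamus alone.

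The higher values of both lists in E4-05 rested largely on E4-05 4. Without that library the myelin median was 0.01 with 13 of 25 above 0, and the thalamus median was 0.01 with 10 of 18 above 0. Leaving out E3-05 1, the lowest E3-05 library for both lists, gave 0.14 with 24 of 25 above 0 for myelin and 0.32 with 17 of 18 above 0 for thalamus. With any other single library left out, all members of both lists lay above 0, and the medians were 0.24 to 0.43 for myelin and 0.43 to 0.83 for thalamus. Leaving out either hindbrain-rich library also takes the other out of the contrast, through the hindbrain term, so those fits are nearly the same. With the hindbrain term, the libraries titled January set E4-05 1 and 2 against E3-05 1, and gave medians of 0.21 for myelin and 0.71 for thalamus. Those titled February set E4-05 4 against E3-05 3 and 4, and gave 0.70 and 1.41. The part of thalamic tissue in the myelin values was not tested.

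**Figure D2:**
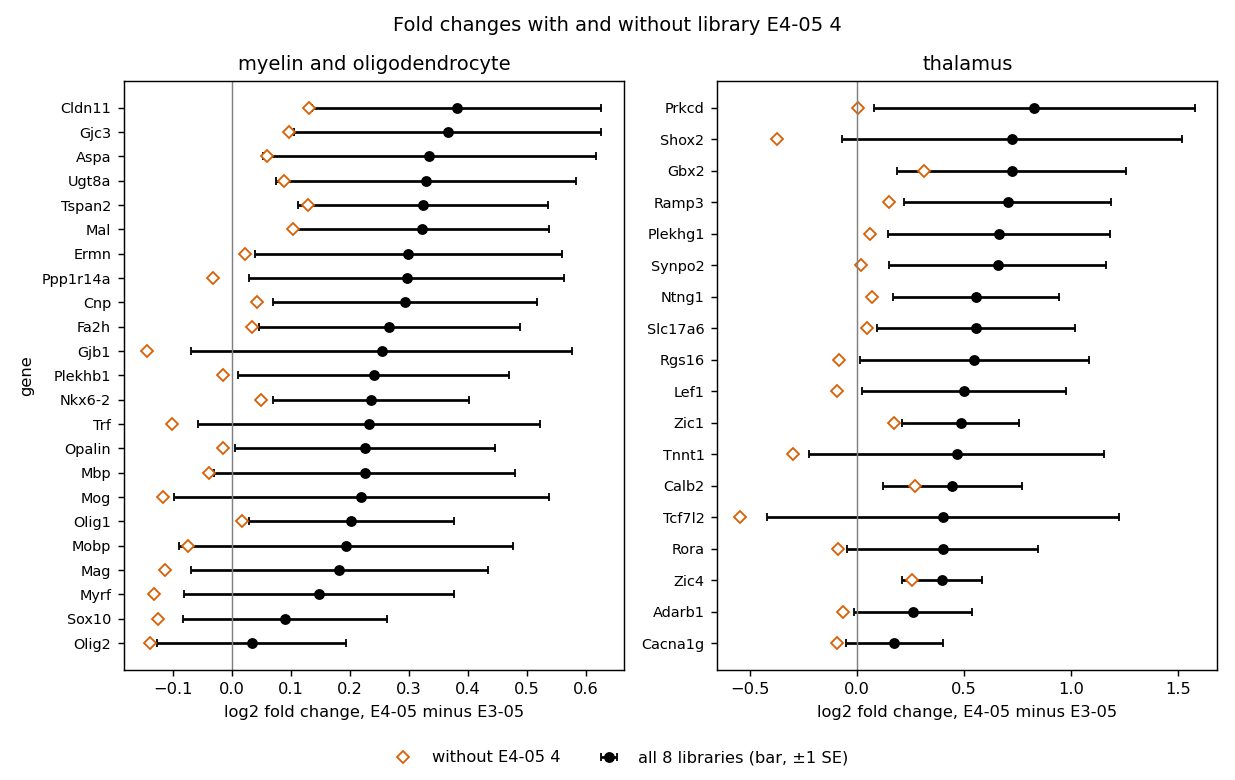
Log2 fold change, E4-05 minus E3-05, of 23 of the 25 myelin genes and all 18 thalamus genes (rows), with all 8 libraries (filled circles, bars of 1 SE) and without E4-05 4 (open diamonds). All filled circles lie right of 0, and 11 of 23 and 10 of 18 diamonds do; the medians of the full lists without that library are 0.01 for both.

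Red cell genes separated the libraries without separating the groups. Hbb-bs, an adult beta globin chain, was at 167, 3.03, 45.2 and 18.9 CPM in E4-05 1 to 4, and at 145, 172, 2.89 and 19.7 CPM in E3-05 1 to 4. Hba-a1, an adult alpha globin chain, was at 96.1, 1.25, 32.3 and 11.1 CPM in E4-05 and at 83.2, 86.8, 3.00 and 13.1 CPM in E3-05. Both were high in E4-05 1, E3-05 1 and E3-05 2, intermediate in E4-05 3, and lowest in E4-05 2 and E3-05 3. The fold changes had errors larger than themselves, at -0.32 (SE 1.33) for Hbb-bs and -0.25 (SE 1.25) for Hba-a1. Of 11 blood genes 8 passed the filter on low counts, 4 of them above 0, with a median of 0.0029. Leaving out E4-05 1 gave a median of -1.22 and leaving out E3-05 1 gave 1.30. Globin copies are near identical in sequence, so the division of reads between Hba-a1 and Hba-a2, and between Hbb-bs and Hbb-bt, is uncertain.

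The promoters of Hbb-bs and Hba-a1, genes whose levels ran together over the 8 libraries, are shown from 250 bases before to 50 after the transcription start (RefSeq, GRCm38.p6; Hbb-bs at chr7:103827879-103828178, minus strand, and Hba-a1 at chr11:32283422-32283721, plus strand). Capitals mark AGATAA, a form of the motif of the GATA family of red cell factors, and CCAAT, the CCAAT box, each searched on both strands. Other forms of the GATA motif were not searched and stay in lower case, such as tgataa in Hba-a1.
Hbb-bs: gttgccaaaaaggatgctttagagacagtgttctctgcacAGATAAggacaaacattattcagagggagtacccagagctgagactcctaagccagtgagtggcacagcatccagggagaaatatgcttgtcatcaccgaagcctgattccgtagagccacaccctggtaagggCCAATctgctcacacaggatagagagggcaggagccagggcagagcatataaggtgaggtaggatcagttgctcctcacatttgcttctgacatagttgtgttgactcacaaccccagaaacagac
Hba-a1: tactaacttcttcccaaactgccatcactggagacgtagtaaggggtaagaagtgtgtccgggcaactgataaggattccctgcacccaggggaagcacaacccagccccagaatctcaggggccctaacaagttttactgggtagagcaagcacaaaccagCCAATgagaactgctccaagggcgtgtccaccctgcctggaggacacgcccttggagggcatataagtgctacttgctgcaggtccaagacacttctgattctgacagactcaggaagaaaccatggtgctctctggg
AGATAA lies at -210 in Hbb-bs, and CCAAT at -76 in Hbb-bs and -88 in Hba-a1, counted from the start. Of all 32851 promoter windows of this length, 11.2% hold AGATAA and 37.4% hold CCAAT.

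E4-05 3, the highest library for the blood list as a whole, differed from the 3 libraries richest in globin in which blood genes it held. Slc4a1, the anion exchanger of the red cell membrane, was at 1.10, 0.0848, 10.8 and 0.266 CPM in E4-05 and at 1.04, 2.96, 0.106 and 0.106 CPM in E3-05. Set against globin, that is 23.9 Slc4a1 counts per 100 of Hbb-bs in E4-05 3 and 0.539 to 3.66 in the other 7. The red cell genes Hemgn, Epb42 and Rhag were also highest in E4-05 3, at 0.877 to 1.83 CPM against at most 0.312 CPM elsewhere, and none of these 3 passed the filter on low counts. Neutrophil granule genes followed the same library. Ngp was at 2.02, 1.02, 23.3 and 0.504 CPM in E4-05 and 1.54, 8.45, 1.66 and 0.266 CPM in E3-05, and S100a9 was at 17.8 CPM in E4-05 3, 7.05 CPM in E3-05 2 and 1.30 CPM or less elsewhere. Of 10 neutrophil and platelet genes, 8 were highest in E4-05 3. The list's median was 0.43, with 8 of 9 tested genes above 0 and 0 called. It was 0.02 without E3-05 2, a fit in which the hindbrain term also takes E4-05 3 out of the contrast. It lay below 0 without the 3 libraries richest in globin (-0.28) and between the libraries titled February (-0.32).

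The 2 alpha globin genes also split differently between libraries. Hba-a2 made up 2.91% of the counts of both genes in E4-05 1 (131 against 4375 for Hba-a1, 95% exact interval 2.44% to 3.44%), and 6.59% to 26.2% in the other 7 libraries. The intervals of E3-05 1 (8.98% to 10.8%) and E3-05 2 (10.4% to 11.9%), which held similar amounts of Hba-a1, do not reach that of E4-05 1. These intervals cover counting error only and treat each count as independent. Both reads of many pairs were counted, so the intervals are too narrow. The uncertain division of reads between the copies applies to them too.

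Anterior pituitary hormone genes were far higher in E3-05 4 than in any other library. Gh, growth hormone, was at 2.31, 15.9, 62.8 and 12.6 CPM in E4-05 1 to 4, and at 0.273, 0.625, 62.8 and 7156 CPM in E3-05 1 to 4. Prl, prolactin, was at 0.791, 3.28, 12.3 and 1.81 CPM in E4-05 and at 0.0454, 0.119, 16.0 and 1188 CPM in E3-05. Pomc, the precursor of corticotropin, was at 1.75 to 4.33 CPM in E4-05 and at 0.863, 0.923, 5.11 and 1060 CPM in E3-05. E3-05 4 was the highest library for all 12 members, the pituitary transcription factors Pou1f1 (11.3 CPM) and Tbx19 (5.56 CPM) among them, which stood at 0.119 CPM or less and 0.0529 CPM or less in the other 7.

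The fitted values of these genes describe that library. Of 12 members 7 passed the filter, and 0 of 7 lay above 0, with a median log2 fold change of -5.91 and errors of 0.92 to 3.96. Cga, the shared alpha chain of the glycoprotein hormones, had the smallest p (-6.69, SE 2.89, unadjusted p = 0.0483). Without E3-05 4 the median was 0.24 with 4 of 7 above 0. The second highest Gh values, 62.8 CPM each, belonged to E4-05 3 and E3-05 3, both titled February, and the libraries titled January gave a median of 1.69 between E4-05 1 and 2 and E3-05 1.

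The promoter of Prl, the second most abundant of these hormone genes, is shown in the same way (RefSeq, GRCm38.p6, chr13:27057320-27057619, plus strand). Capitals mark ATGNATA, a motif of the pituitary factor Pou1f1, searched on both strands.
Prl: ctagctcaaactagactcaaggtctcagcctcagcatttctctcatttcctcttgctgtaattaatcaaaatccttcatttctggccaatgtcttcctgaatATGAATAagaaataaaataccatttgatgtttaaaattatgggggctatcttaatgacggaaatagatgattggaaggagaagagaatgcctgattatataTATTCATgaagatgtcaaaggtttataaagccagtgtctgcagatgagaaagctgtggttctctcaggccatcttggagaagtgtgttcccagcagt
The motif lies at -148 on the plus strand and at -47 on the minus strand, and 8.8% of all promoter windows hold it.

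**Figure D3:**
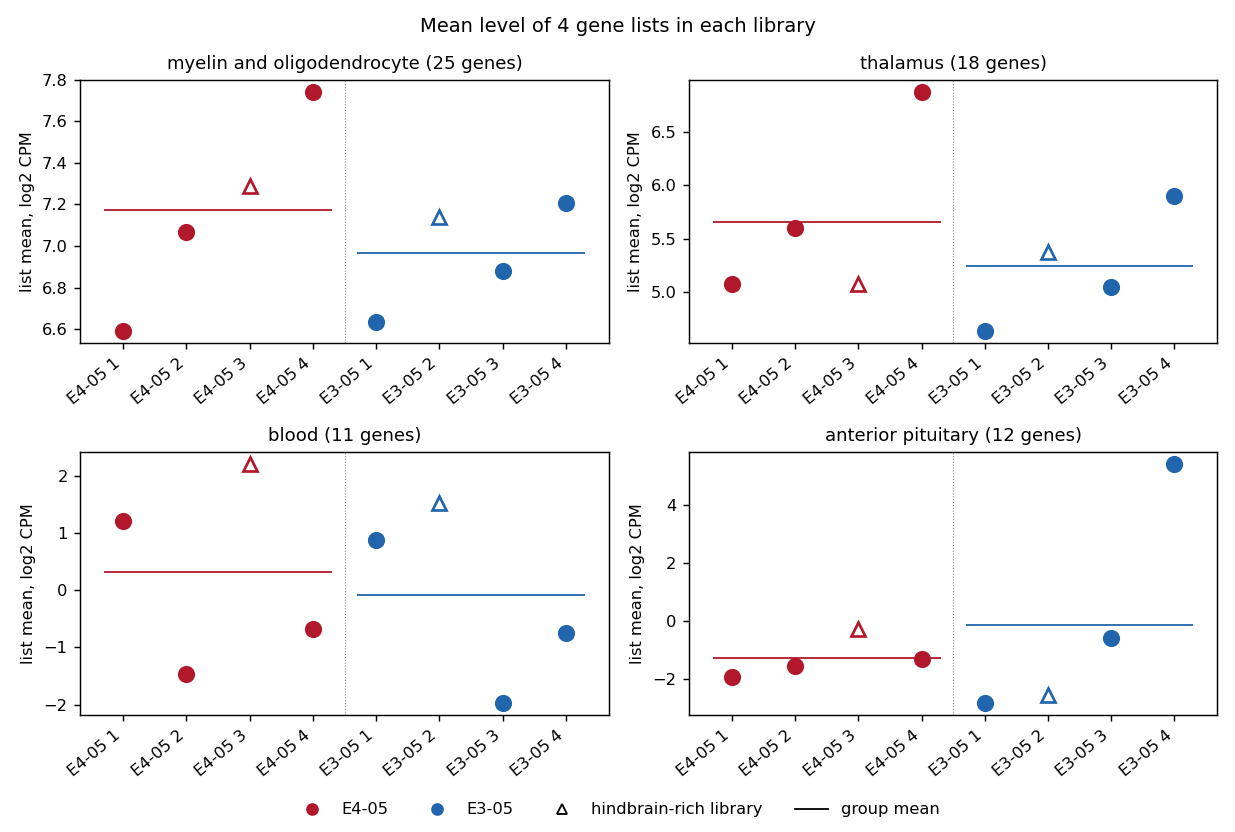
Mean log2 CPM of 4 gene lists in each of the 4 E4-05 and 4 E3-05 libraries, with a line at each group mean and triangles for the hindbrain-rich libraries. E4-05 4 is the highest for myelin (7.74) and thalamus (6.88), E4-05 3 for blood (2.21) and E3-05 4 for the anterior pituitary (5.44), while the other libraries of the groups overlap.

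Hypothalamic genes were led by E4-05 1, which was the highest library for 11 of 13 members. Oxt, oxytocin, was at 53.8, 0.381, 0.190 and 0.372 CPM in E4-05 and at 15.8, 0.238, 16.6 and 10.4 CPM in E3-05. Hcrt, the orexin precursor, was at 19.9, 0, 0 and 7.75 CPM in E4-05 and at 5.72, 0.0893, 12.1 and 1.62 CPM in E3-05. One E4-05 library and 3 E3-05 libraries were above 10 CPM of Oxt. The fitted median, with the hindbrain term, was 0.36, with 9 of 11 above 0 and 0 called, and it was -0.99 without E4-05 1, -0.55 between the libraries titled January and -1.08 between those titled February. Pituitary hormone and hypothalamic peptide genes therefore peaked in different libraries.

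Choroid plexus genes were lowest in E4-05 1 and highest in E4-05 3, both of the same group. Ttr, the thyroxine carrier that choroid plexus cells secrete, was at 3.49, 713, 2653 and 798 CPM in E4-05 1 to 4, and at 938, 1330, 241 and 40.4 CPM in E3-05 1 to 4. E4-05 3 was the highest of the 8 libraries for all 13 members, E4-05 1 the lowest for 9 and E3-05 4 for the other 4. All 13 lay above 0 with a median of 0.47, and 0 were called. The median was 0.22 to 1.11 with 1 library left out, but -1.33 between the libraries titled January and 1.70 between those titled February. The smallest p was that of Prlr, the prolactin receptor (18.6, 23.0, 38.8 and 26.3 CPM in E4-05, 20.9, 20.6, 15.8 and 15.1 CPM in E3-05, log2 fold change 0.52, SE 0.16, unadjusted p = 0.0117). Its groups overlapped, since E4-05 1 lay below E3-05 1 and 2.

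Forebrain lists were lowest in the hindbrain-rich library of each group. Drd1, the dopamine receptor of direct-pathway striatal neurons, was at 82.9, 24.2, 1.07 and 34.5 CPM in E4-05 and at 82.2, 0.833, 32.5 and 24.7 CPM in E3-05 (0.07, SE 0.49). The highest libraries of both groups were those numbered 1, and the lowest were the hindbrain-rich ones. Striatal genes gave a median of -0.08 with 3 of 11 above 0. Cortical and hippocampal genes gave -0.26 with 2 of 12 above 0. Among those below 0 was Slc17a7, a vesicular glutamate transporter, at 742, 1483, 442 and 363 CPM in E4-05 and 1549, 461, 1303 and 1128 CPM in E3-05 (-0.48, SE 0.37). E4-05 4, the highest for the thalamus list, held less Slc17a7 than either hindbrain-rich library. The cortical list as a whole had the other order, at 5.02 log2 CPM in E4-05 4, 3.92 in E4-05 3 and 3.20 in E3-05 2. Slc17a7 alone therefore does not stand for the cortical list in these libraries. Without E4-05 4 the cortical median was 0.07.

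In the midbrain and monoamine list, the genes of serotonin neurons had small unadjusted p. Tph2, the brain enzyme of serotonin synthesis, was at 2.37, 1.63, 33.6 and 3.13 CPM in E4-05 and at 0.840, 6.47, 1.59 and 1.22 CPM in E3-05 (1.35, SE 0.34, unadjusted p = 0.00386). Slc6a4, the serotonin transporter, was at 1.12, 0.0424, 24.7 and 2.58 CPM in E4-05 and at 0.182, 5.01, 0.317 and 0.0532 CPM in E3-05 (2.51, SE 0.84, unadjusted p = 0.0165). Both were highest in E4-05 3, and both groups overlapped. The dopamine transporter Slc6a3 did not follow them, at 0.989, 22.5, 2.82 and 49.8 CPM in E4-05 and 0.318, 0.417, 37 and 42 CPM in E3-05. At time code 15 Tph2 had the other sign, -1.08. The list's median was 0.32 with 9 of 10 above 0, and it was 0.10 without E4-05 4.

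The genes named by the series title had fold changes smaller than their errors. Apoe was at 977, 1075, 898 and 1056 CPM in E4-05 and at 976, 977, 1201 and 969 CPM in E3-05 (-0.04, SE 0.10). The counts are per mouse gene symbol and do not tell alleles apart, so they do not check the E code. Nr1h3, the liver X receptor alpha, was at 2.75, 3.05, 6.35 and 2.81 CPM in E4-05 and at 2.61, 8.08, 2.71 and 3.46 CPM in E3-05 (-0.11, SE 0.15), with its highest values in the hindbrain-rich libraries. Asxl1, a polycomb-associated chromatin protein, was at 62.1, 60.3, 54.1 and 61.1 CPM in E4-05 and at 65.0, 58.3, 62.3 and 58.7 CPM in E3-05 (-0.04, SE 0.06).

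The sterol genes around these stayed close to 0 as well. Abca1 (0.04, SE 0.09) and Abcg1 (-0.04, SE 0.09), which load cholesterol onto apolipoproteins, and Srebf1 (0.01, SE 0.12), a regulator of fatty acid synthesis, had errors above their values. The list of liver X receptor targets and sterol export gave a median of 0.0063 with 10 of 16 above 0. Of its members, Scd2, a fatty acid desaturase, had the smallest p (0.17, SE 0.15, unadjusted p = 0.289), with its highest value, 3116 CPM, in E4-05 4. Cholesterol synthesis genes gave -0.02 with 10 of 24 above 0. Msmo1, a sterol oxidase of the pathway, had the smallest p of the list, at 77.3, 85.2, 59.9 and 88.6 CPM in E4-05 and at 68.4, 53.1, 75.7 and 82.3 CPM in E3-05 (0.16, SE 0.08, unadjusted p = 0.0849).

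Homeostatic microglial genes were lower in the hindbrain-rich libraries, while the mean of the disease-associated microglia list was lowest in neither of them. Homeostatic genes averaged 4.70, 4.86, 3.70 and 4.57 log2 CPM in E4-05 and 4.69, 3.66, 4.77 and 4.65 in E3-05, lowest in the hindbrain-rich library of each group. Their median was -0.01 with 6 of 14 above 0. P2ry12, the purinergic receptor of resting microglia, was at 38.9, 43.7, 16.2 and 32.0 CPM in E4-05 and at 41.7, 16.8, 45.0 and 37.5 CPM in E3-05 (-0.10, SE 0.11). Genes of disease-associated microglia averaged 4.05, 4.10, 4.14 and 4.05 log2 CPM in E4-05 and 3.90, 3.95, 4.10 and 4.01 in E3-05, and gave a median of 0.05 with 14 of 19 above 0. The hindbrain-rich E4-05 3 was the highest library for 7 of the list's 20 members and the lowest for 1. The hindbrain-rich E3-05 2 was the highest for 2 and the lowest for 4. Trem2, the lipid-sensing receptor of microglia, was at 9.84, 9.75, 5.17 and 8.76 CPM in E4-05 and at 12.0, 3.65, 9.64 and 8.61 CPM in E3-05 (0.05, SE 0.16). Its lowest value in each group was in the hindbrain-rich library. Cd9, which oligodendrocytes also express, had the smallest p of that list (46.6, 54.3, 63.1 and 63.8 CPM in E4-05, 46.0, 50.3, 48.9 and 49.3 CPM in E3-05, 0.23, SE 0.10, unadjusted p = 0.0525).

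Of 28 genes of the Asxl, polycomb and H3K4 methylation list, 20 lay below 0 and 8 above, with a median of -0.04, while 50.7% of all genes lay above 0. An unadjusted p under 0.05 was found for 2 of the 28, against 2.4% of all genes, and 0 were called. Setd1b, an H3K4 methyltransferase, was at 58.7, 62.1, 74.3 and 64.1 CPM in E4-05 and at 80.7, 90.2, 68.4 and 64.5 CPM in E3-05 (-0.23, SE 0.08, unadjusted p = 0.0256). Setd1a, its close relative, was at 65.6, 65.2, 81.9 and 65.0 CPM in E4-05 and at 71.9, 93.8, 71.8 and 69.3 CPM in E3-05 (-0.14, SE 0.06, unadjusted p = 0.0368). In both genes the hindbrain-rich library was the highest of its group, and the hindbrain-rich E4-05 library overlapped the E3-05 values. Kmt2a, the founding MLL methyltransferase, gave -0.16 (SE 0.08), and the H3K4 demethylase Kdm5b gave -0.03 (SE 0.10). Ezh2 (0.14, SE 0.17) and Suz12 (0.14, SE 0.06), core parts of polycomb repressive complex PRC2, were among the members above 0.

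The remaining lists held no called gene. Astrocyte genes gave a median of 0.12 with 11 of 16 above 0, and Gfap was at 177, 266, 327 and 271 CPM in E4-05 and 113, 266, 274 and 207 CPM in E3-05 (0.27, SE 0.26). Endothelial genes gave 0.08 with 12 of 15 above 0, mural and fibroblast genes 0.10 with 10 of 13 (-0.16 without the 3 libraries richest in globin), interferon response genes 0.11 with 12 of 16 and antigen presentation genes 0.04 with 8 of 14. Cd74, the invariant chain of class II molecules, peaked in E4-05 1 at 23.9 CPM, against 5.04 to 12.8 CPM in the other 7. Immediate early genes of neuronal activity gave -0.14 with 3 of 14 above 0. Of these, Fosb was at 10.9, 17.4, 1.07 and 9.74 CPM in E4-05 and 15.7, 1.37, 18.2 and 20.2 CPM in E3-05 (-0.48, SE 0.19, unadjusted p = 0.0377), lowest in both hindbrain-rich libraries.

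Amyloid processing genes gave a median of -0.005 with 7 of 14 above 0. Aph1b, a subunit of gamma-secretase, was at 39.5, 38.4, 53.2 and 35.6 CPM in E4-05 and at 35.0, 48.0, 32.9 and 32.6 CPM in E3-05 (0.17, SE 0.07, unadjusted p = 0.0313). Its hindbrain-rich libraries were the highest of each group, and the groups overlapped. App, the amyloid precursor, gave -0.12 (SE 0.09).

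The 6 genes with the smallest unadjusted p in each direction were mostly of low level. Higher in E4-05 were Gm33777, LOC118567340, Gm33649, Morf4l1b, Tph2 and Gtf2a1l, with log2 fold changes of 0.50 to 1.38. Gm33649 was at 3.10, 1.97, 20.1 and 3.43 CPM in E4-05 and at 1.09, 14.7, 1.27 and 1.57 CPM in E3-05 (0.93, SE 0.23), with both hindbrain-rich libraries far above the rest. The E4-05 libraries were above the E3-05 ones within the hindbrain-rich pair and among the other 6. Morf4l1b was at 17.7, 13.5, 14.6 and 14.8 CPM in E4-05 and at 10.0, 10.1, 9.98 and 12.8 CPM in E3-05 (0.50, SE 0.13), without overlap. Its name marks it as a copy of Morf4l1, so the division of reads between them is uncertain.

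Lower in E4-05 were LOC118567870, Per1, 9530077C05Rik, Tle2, 4930432K21Rik and Cnot3. Per1, a core gene of the circadian clock, was at 65.0, 68.8, 49.5 and 61.6 CPM in E4-05 and at 84.5, 59.0, 75.9 and 81.3 CPM in E3-05 (-0.29, SE 0.07, unadjusted p = 0.00221). Among the 6 libraries that were not hindbrain-rich, all 3 of E4-05 were below all 3 of E3-05, and the hindbrain-rich pair had the same order. Cnot3, a subunit of the CCR4-NOT deadenylase complex, was at 38.2, 43.4, 48.9 and 36.5 CPM in E4-05 and at 52.7, 67.8, 49.8 and 41.9 CPM in E3-05 (-0.33, SE 0.10). Tle2, a Groucho co-repressor, was at 10.3, 9.81, 40.7 and 9.77 CPM in E4-05 and 11.6, 66.8, 12.2 and 11.6 CPM in E3-05 (-0.37, SE 0.10), so that most of the distance in CPM lay in the hindbrain-rich pair. 9530077C05Rik (5.67, 5.68, 5.90 and 5.95 CPM in E4-05, 7.38, 8.38, 6.89 and 8.27 CPM in E3-05) and 4930432K21Rik (2.86, 3.43, 3.03 and 2.92 CPM in E4-05, 4.27, 4.33, 4.72 and 3.96 CPM in E3-05) did not overlap. The adjusted p of all 12 was 0.987 with edgeR.

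**Figure D4:**
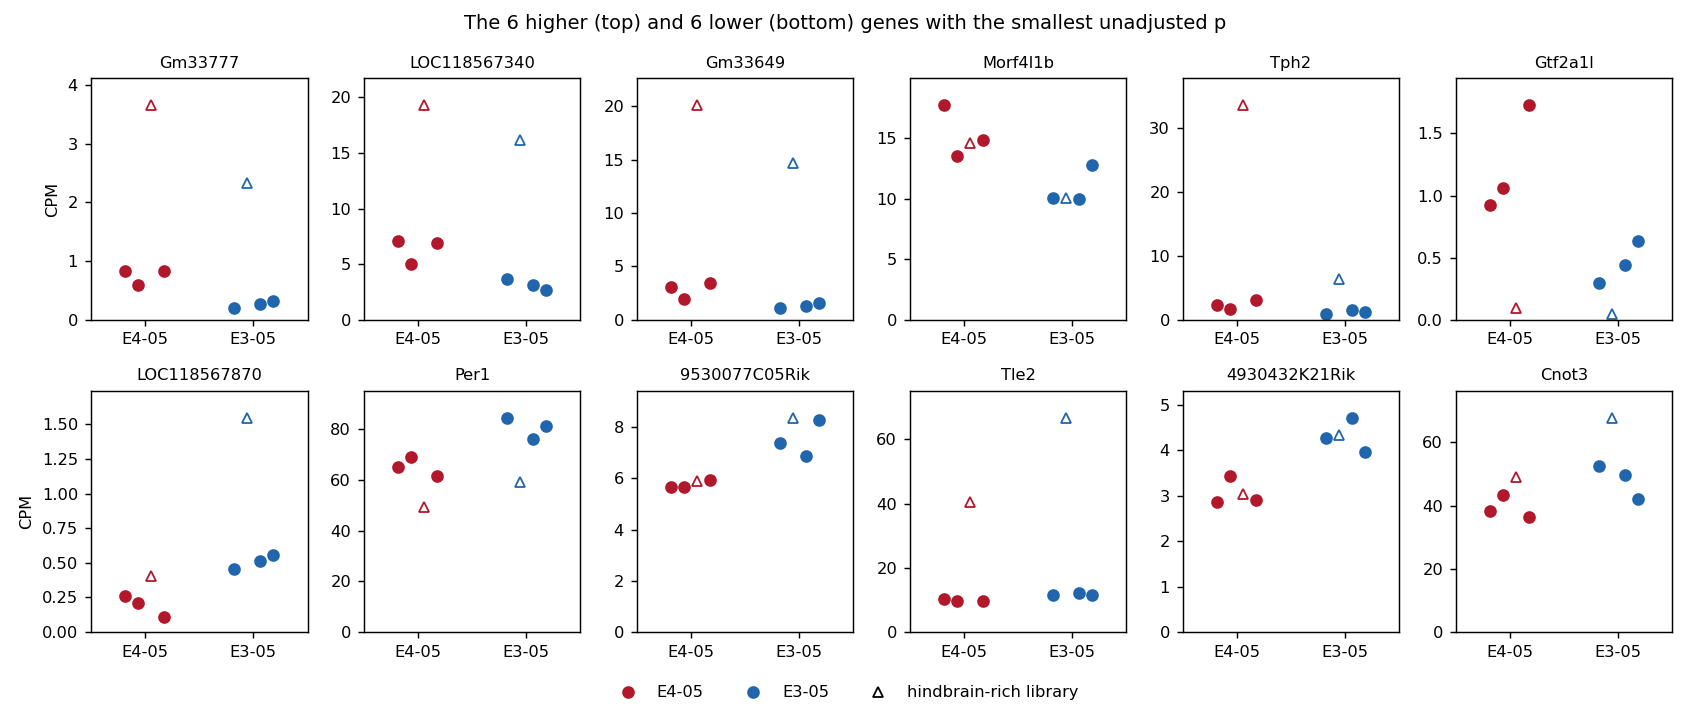
CPM in each library for the 6 higher and the 6 lower genes with the smallest unadjusted p, E4-05 left and E3-05 right in each panel, with triangles for the hindbrain-rich libraries and each axis starting at 0. For 4 of the 12 genes (Morf4l1b, LOC118567870, 9530077C05Rik and 4930432K21Rik) the groups do not overlap, and none passed the test.

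The groups did not overlap in 92 genes that were higher (0.501%) and 63 that were lower (0.343%) in E4-05. How many genes would separate with no differences was not computed, so a lack of overlap alone is not read as a difference. The 3 named next were chosen after their values were seen. Sar1b, a GTPase of vesicle budding from the endoplasmic reticulum, was at 39.9, 39.3, 41.2 and 39.7 CPM in E4-05 and at 34.0, 32.0, 32.3 and 36.5 CPM in E3-05 (0.25, SE 0.07, unadjusted p = 0.00667). Its hindbrain-rich libraries lay with their groups. Gng5, a G protein gamma subunit, was at 14.4, 15.2, 17.4 and 18.6 CPM in E4-05 and 11.8, 12.9, 12.8 and 13.3 CPM in E3-05 (0.37, SE 0.11). Mlycd, malonyl-CoA decarboxylase of fatty acid metabolism, was at 4.59, 4.28, 4.15 and 4.35 CPM in E4-05 and 5.68, 5.09, 5.32 and 5.79 CPM in E3-05 (-0.33, SE 0.12).

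The same contrast at the other 2 time codes, in other libraries and with a hindbrain term of its own, gave other directions for most of the lists with the widest spread. At time code 10, 0 of 18778 genes passed (0%), and 771 had an unadjusted p under 0.05 (4.11%). At time code 15, 0 of 18388 passed (0%), and 412 had such a p (2.24%). Myelin genes, 25 of 25 above 0 at time code 05, had 0 of 25 above 0 and a median of -0.20 at each of the other 2. Thalamus genes had a median of -0.67 with 0 of 18 above 0 at time code 10 and -0.03 with 7 of 18 at time code 15. The choroid plexus list had -1.13 with 0 of 13 above 0 at time code 10 and -0.08 with 4 of 13 at time code 15. Anterior pituitary genes had 2.52 with 7 of 7 above 0 at time code 10 and 0.01 with 3 of 5 at time code 15. The posterior pituitary and hypothalamus list lay above 0 at time code 10 too, with the highest median of any list there (3.09, 9 of 10 above 0), and below it at time code 15 (-0.31, 3 of 12). Blood genes had 0.07 with 6 of 8 above 0 at time code 10 and -0.31 with 2 of 7 at time code 15. Of the 12 genes taken by smallest p in each direction, 6 had the same direction at time code 10 and 7 at time code 15. At time code 10, 0 of the 12 were at an unadjusted p under 0.05. At time code 15, 2 were, Tph2 (-1.08) and Tle2 (0.39), both with the other sign.

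A test of the difference itself, E4 minus E3 at time code 05 less the mean of the other 2, called 0 of 20437 genes with edgeR (0%). It had 879 genes at an unadjusted p under 0.05 and a smallest adjusted p of 0.864. Time codes 10 and 15 were not tested against each other. The 6 lists with the narrowest spread over libraries had medians of -0.15 to 0.08 over the 3 time codes. Their directions varied, except for cholesterol synthesis and amyloid processing, which lay below 0 at all 3. The Asxl and H3K4 methylation list had -0.04, 0.0021 and 0.05, cholesterol synthesis -0.02, -0.04 and -0.05, and amyloid processing -0.005, -0.02 and -0.01, at time codes 05, 10 and 15 in turn. In the same order, disease-associated microglia had 0.05, -0.14 and -0.05, endothelium 0.08, -0.15 and -0.02, and liver X receptor targets 0.0063, -0.09 and 0.04. At time code 10, 4 of 19, 1 of 15 and 4 of 17 members of these lay above 0. The Asxl list had 23 of 28 above 0 at time code 15, against 8 of 28 at time code 05.

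**Figure D5:**
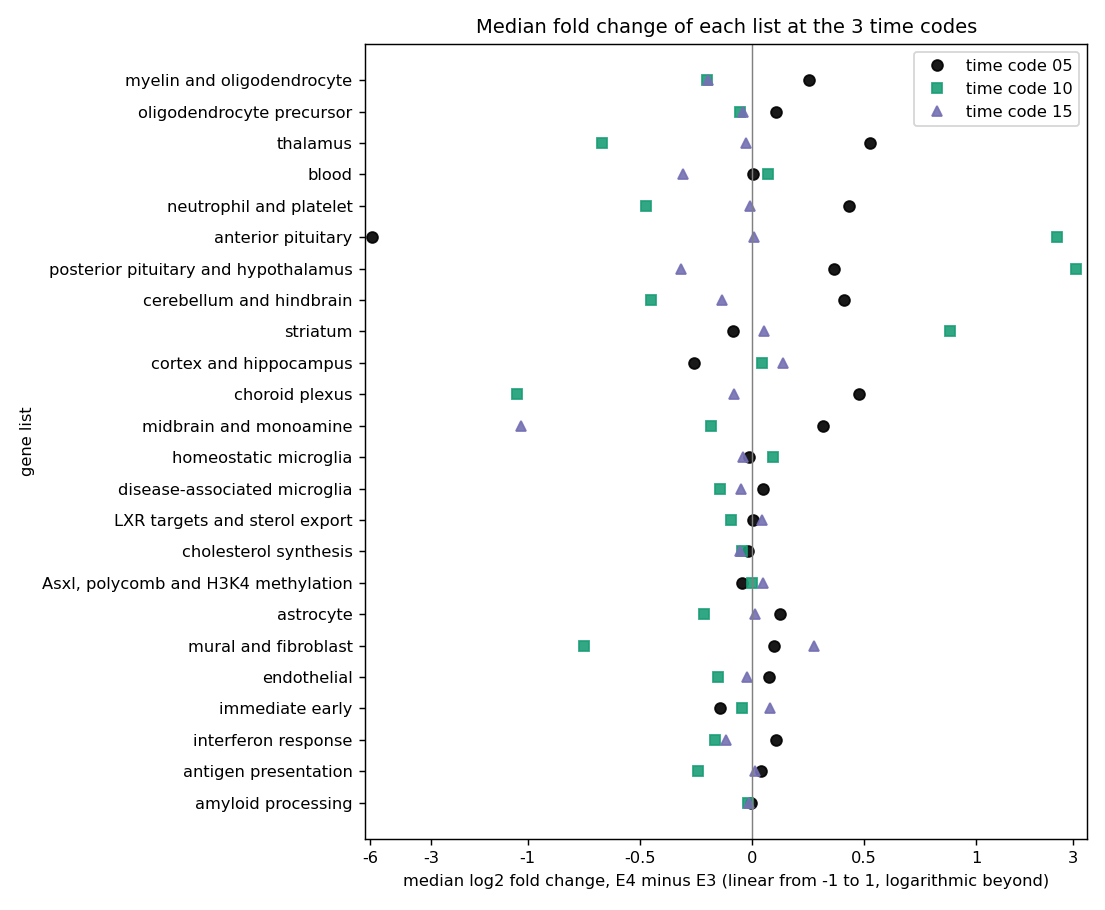
Median log2 fold change, E4 minus E3, of each of 24 gene lists (rows) at time codes 05, 10 and 15, each from its own 8 libraries, on an axis linear from -1 to 1 and logarithmic beyond. Tissue lists such as anterior pituitary (-5.91, 2.52 and 0.01), thalamus (0.52, -0.67 and -0.03) and choroid plexus (0.47, -1.13 and -0.08) have medians of both signs, and the lipid and chromatin lists stay near 0.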

How the data were processed

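The authors deposited raw counts per gene in 1 table of 40836 genes and 24 columns, with no normalization. Per the submitters' processing notes, HISAT2 2.1.0, featureCounts 2.0.6 and the mm39 build were used. The annotation and strand setting are not given in the sources used here, so overlapping and antisense genes cannot be told apart. Per the labels' protocols, RNA was extracted with TRIzol and libraries were made with NEBNext Ultra for a NovaSeq. Among counts of 1 to 19, 65.4% to 70.8% were even in the 8 libraries, so both reads of many pairs were counted and the counts overstate fragments. No column of values was left unused (0).

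Libraries were joined to columns by the header number in their labels. The members and gene lists were chosen with earlier results of these data known. Genes kept by edgeR's filterByExpr (18359) were fitted in R 4.3.3 with edgeR 4.0.16, TMM factors, quasi-likelihood F tests, a term for E4-05 3 and E3-05 2 and 5 residual degrees of freedom. P-values were adjusted by Benjamini-Hochberg over all genes, and the SE is the log2 fold change over the root of F. Log2 CPM used a prior count of 2. A list is described by its counts and its median beside all genes. The script was tested on simulated counts of 18359 genes, where it made 11 false calls. Each other time code was fitted alone in the same way, and E4 minus E3 at time code 05 less the mean of the others was tested in 1 fit of all 24 libraries.

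Named genes are the 6 smallest p in each direction, given as not called, up to 8 members of the myelin, thalamus, blood and pituitary lists by mean CPM, the 3 smallest p of each other list, 10 genes of the title and its partners, and 4 for the region and sex checks; other genes were chosen after their values were seen, and a few members are not reported here by name. No block was fitted for library numbers, since no label says what they mark. After the hindbrain term, libraries with the same number correlated at -0.0499 to 0.183, not all above 0.1, which does not settle whether they are pairs. Alternatives were other factors and filters, DESeq2 1.42.0, limma-voom (limma 3.58.1), other hindbrain settings, a replicate block, month, all 24 libraries, halved counts and each library left out. Gene positions are not given, since the build of the annotation here differs; promoters are RefSeq's for GRCm38.p6, where 9 of 11 blood and 8 of 12 pituitary genes have one.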

Additional observations from a re-analysis of the deposited data

Results flagged for a closer look

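In 18 of 156 groups of 4 libraries (48 of lists and 108 of genes), 1 library stood apart from the other 3 by Dixon's criterion. Chance gives about 1 in 20 for independent groups that were not selected. These groups share the same libraries, and their genes and lists were chosen with these data known. The count of 18 is therefore not read against that rate. Of the 18, 13 were in a hindbrain-rich library. Levels below are in log2 CPM. In E4-05 3 the cerebellum and hindbrain list stood at 5.85 against -0.65 to 0.44 in the other E4-05 libraries, Tle2 at 5.35 against 3.29 to 3.37, and Nr1h3 at 2.68 against 1.48 to 1.63. In E3-05 2 the same list stood at 6.30 against -1.71 to -0.60 in the other E3-05 libraries, Tle2 at 6.06 against 3.54 to 3.61, Zic1 at 9.45 against 5.90 to 6.28, Gm33649 at 3.88 against 0.18 to 0.69, Gm33777 at 1.25 against -2.02 to -1.47, and LOC118567870 at 0.67 against -1.01 to -0.74. E3-05 2 was the low library for the hypothalamus list at -1.48 against 1.27 to 1.56, the cortex list at 3.20 against 6.35 to 6.61, homeostatic microglia at 3.66 against 4.65 to 4.77, and cholesterol synthesis at 5.21 against 5.44 to 5.47.

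The other 5 lay in libraries that were not hindbrain-rich. Slc17a6 stood at 8.48 in E4-05 4 against 6.95 to 7.18, the library richest in thalamus genes. Lhb, a gonadotropin chain, stood at 5.19 in E3-05 4 against -0.64 to 0.06, the library rich in pituitary RNA. The midbrain and monoamine list was low in E3-05 1, at -0.71 against 1.39 to 1.47. Morf4l1b stood at 3.68 in E3-05 4 against 3.32 to 3.34. Apoe stood at 10.23 in E3-05 3 against 9.92 to 9.93, the highest of the 8 libraries for the gene of the series title.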

How the results depend on the processing

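No setting called a gene: all 24 alternatives gave 0, with unadjusted counts from 132 (no hindbrain term) to 1474 (without E4-05 2), and 680 with the replicate block. The 1474 were of 18812 genes tested, with a smallest adjusted p of 0.637 in edgeR, against 440 of 18359 and 0.987 in the main fit. Without the 3 libraries richest in globin the smallest adjusted p in edgeR was 0.301. These values therefore depend on which libraries are included. List medians moved by less than the spread between libraries in 551 of 576 alternatives, among them every change of factors or filter. With the replicate block the medians were 0.20 for myelin, 0.44 for thalamus and -0.73 for the anterior pituitary, which stood at -1.22 with limma-voom and -2.18 with month as a covariate. After the hindbrain term, 1 of 8 libraries correlated best with its own number. That term makes what remains in E4-05 3 and E3-05 2 exact opposites (correlation -1), so the check cannot tell whether a library number marks a pair.

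The libraries titled February gave 0.70 for myelin, 1.41 for thalamus, -0.32 for neutrophils and platelets, -1.08 for the hypothalamus, 1.45 for the hindbrain, -1.66 for the cortex, -0.12 for homeostatic microglia, 0.20 for endothelium and -0.94 for immediate early genes. Those titled January gave -1.61 for blood, 1.69 for the anterior pituitary, -0.98 for the striatum, -1.33 for the choroid plexus and 0.0172 for cholesterol synthesis. Without the 3 libraries richest in globin (E4-05 1, E3-05 1 and E3-05 2; E4-05 3, highest for the blood list, stayed in), neutrophils and platelets gave -0.28, the hypothalamus -1.36 and mural cells -0.16. With 1 library left out, the ranges were -1.22 to 1.30 for blood, -7.21 to 0.24 for the anterior pituitary, -0.99 to 0.77 for the hypothalamus, -0.0499 to 0.0045 for cholesterol synthesis and -0.0833 to -0.0214 for the Asxl list. The cause was not tested beyond naming the library left out. With 4 libraries a group, a count of 0 does not show that differences are absent.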
